A study of Caenorhabditis elegans with 30 samples.

Results

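The 994 windows described here carried the strongest H3K9me3 of wild-type (WT) C. elegans outside the native targets of germline nuclear RNAi. They were selected on WT H3K9me3 itself. The genome (WS190, ce6) was divided into 100270 windows of 1 kb, of which 506 were marked as misannotated and 381 as GRH or GRTS. From the other 99383 windows, the top 1% by mean H3K9me3 over the 3 WT libraries were taken. GRH (germline nuclear RNAi-dependent heterochromatin, 215 windows) and GRTS (germline nuclear RNAi-dependent transcriptional silencing, 191 windows) are the native targets that the authors had marked in the table. A window is named below by its chromosome and its start in kb, so that V:17127 is the window that starts at 17127 kb on chromosome V. Since WT H3K9me3 chose the windows, their WT H3K9me3 levels and every mutant to WT comparison of this mark are given as a description, without a test. Pol II and the differences in H3K9me3 between mutants were not used in the selection and were tested, in fits that also held the WT libraries.

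ChIP-seq was done on whole young adults, synchronized and grown at 19 °C, for H3K9me3 and for RNA polymerase II phosphorylated at serine 2 of its C-terminal repeats (Pol II). The strains were WT (N2), set-32 with the allele ok1457, a strain with the alleles met-2(n4256) and set-25(ok5021) together, called met-2 set-25 or the double mutant, a strain with all 3 of these alleles, called met-2 set-25;set-32 or the triple mutant, and hrde-1 with the allele tm1200. Animals were fed E. coli OP50, bacteria expressing gfp dsRNA (gfp RNAi) or bacteria expressing oma-1 dsRNA (oma-1 RNAi) for H3K9me3, and gfp RNAi or oma-1 RNAi for Pol II, with 1 library for each strain, feeding and mark. The feedings therefore served as the samples of a strain (n = 3 for H3K9me3, n = 2 for Pol II). SDs below measure the spread between feedings. SEs and p-values of the fits measure how unequal the strain differences were between feedings, pooled over the 5 strains.

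H3K9me3 is the histone mark of constitutive heterochromatin. In C. elegans it covers broad domains on the chromosome arms, where repeats and transposon remnants are frequent. MET-2 and SET-25 are histone methyltransferases (HMTs) for H3K9 that act on most of this heterochromatin, SET-32 is a further SET-domain methyltransferase linked to nuclear RNAi, and HRDE-1 is the germline Argonaute protein that carries siRNAs into the nucleus and directs silencing at its targets. Serine 2 phosphorylation marks the elongating form of Pol II. In whole animals, a change in every cell and a change in the share of cells that carry a mark cannot be told apart.

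The limit of the selection lay at a WT mean of 39.17 RPKM (reads per kb of window, normalized to the aligned reads of a library). Just inside it were IV:1427 (39.18), IV:2370 (39.18) and IV:2897 (39.17), and just outside were X:239 (39.16), V:17770 (39.16) and V:17413 (39.15). The windows thus form the upper end of a continuous range and not a separate class. Their WT means had quartiles of 41.9 and 53.1 RPKM around a median of 45.7, and 675 of them (67.9%) were under 50. Only 14 windows reached 100, of which 13 were the last 13 windows of chromosome I (I:15060 to I:15072). The last windows of chromosome I rose to 1712 RPKM and held 18.2% of the summed WT signal of all 994, so they are described on their own below. The counts of Pol II rises in the double mutant and the triple mutant are also given without them. The highest window elsewhere was V:17127 with 124 RPKM.

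Of the 994 windows, 686 were in the top 1% of each WT library and all but 3 in the top 5% of each, which largely follows from the selection on their mean. Those 3 (III:3895, III:8858 and IV:2996) were low in WT on OP50, where the top 5% began at 26.4 RPKM, and high in WT on both kinds of RNAi bacteria. A median window of the 994 held 38 to 196 reads in the H3K9me3 libraries, but 10 to 33 reads in the Pol II libraries. The 994 windows took 7.97%, 4.13% and 5.37% of the reads of WT on OP50, gfp RNAi and oma-1 RNAi, and 1.88% to 2.28% in the double mutant and the triple mutant. In 464 of the windows most libraries held reads that aligned to several loci and were counted in parts, and such windows cannot be assigned to 1 place with certainty. Library names begin differently for set-32 and the triple mutant than for the other 3 strains, and whatever that beginning stands for cannot be told apart from these strains. For H3K9me3 on gfp RNAi and oma-1 RNAi, the names of set-32 and the triple mutant also begin differently from each other. For H3K9me3 on OP50 and for Pol II they begin alike.

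The selected windows lay on chromosome arms, above all on the right arm of chromosome V. Chromosome V held 528 of the 994 (53.1%), which was 2.55% of its windows, followed by II with 132, I with 116, X with 103, IV with 71 and III with 44. With each chromosome divided into 3 equal parts, the outer parts held 948 windows (95.4%), against 66.6% of the 99383 windows from which they were chosen. The part of chromosome V from 80% to 90% of its length held 377 of the selected windows (18.5% of the 2034 windows there, and 37.9% of all 994). The next densest stretches of this kind were 10% to 20% of chromosome II with 90 windows (5.95%), 90% to 100% of chromosome I with 55 (3.66%), 90% to 100% of chromosome V with 74 (3.55%) and 0% to 10% of chromosome X with 54 (3.09%). The 55 on chromosome I include its last 13 windows.

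**Figure D1:**
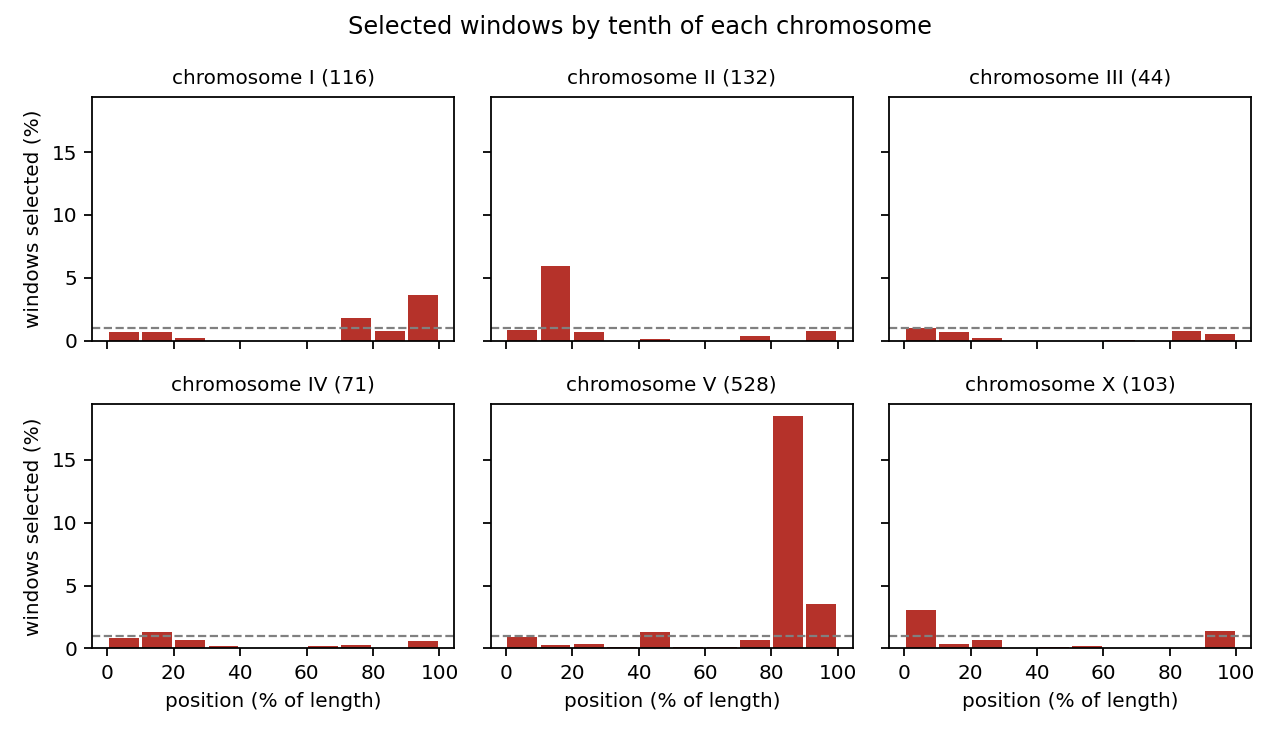
Share of windows that were selected (y axis, percent of the windows in a bin of 10% of the length, linear) against position (x axis, percent of chromosome length) for the 6 chromosomes, with the number selected in parentheses. The dashed line marks 1%, the share over the genome, and the bar of chromosome V at 80% to 90% reaches 18.5%.

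Selected windows came in runs. Joined over gaps of at most 1 kb they formed 385 runs, of which 181 were single windows and 117 had 3 windows or more and held 639 of the 994 (64.3%). The longest was V:17132-17152 with 20 windows and a mean WT level of 71.2 RPKM, followed by V:17632-17647 with 15 (49.2 RPKM) and V:17052-17066 with 14 (48.4 RPKM), and 7 of the 10 longest runs lay between V:17052 and V:19281. Beyond the last window of a run of 3 or more, the median WT level (scaled as defined below) went from 58.9 at the last window to 41.9 at 1 kb and 26.3 at 10 kb, so that the flanks were still marked. The same median in the triple mutant was 11.1 at the last window, 9.0 at 1 kb and 8.6 at 10 kb, which leaves little of the edge. In hrde-1 it went from 44.0 over 29.3 to 19.1, so an edge was still present. Pol II had no step there: its WT median was 3.32 RPKM at the last window and 3.01 at 1 kb.

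**Figure D2:**
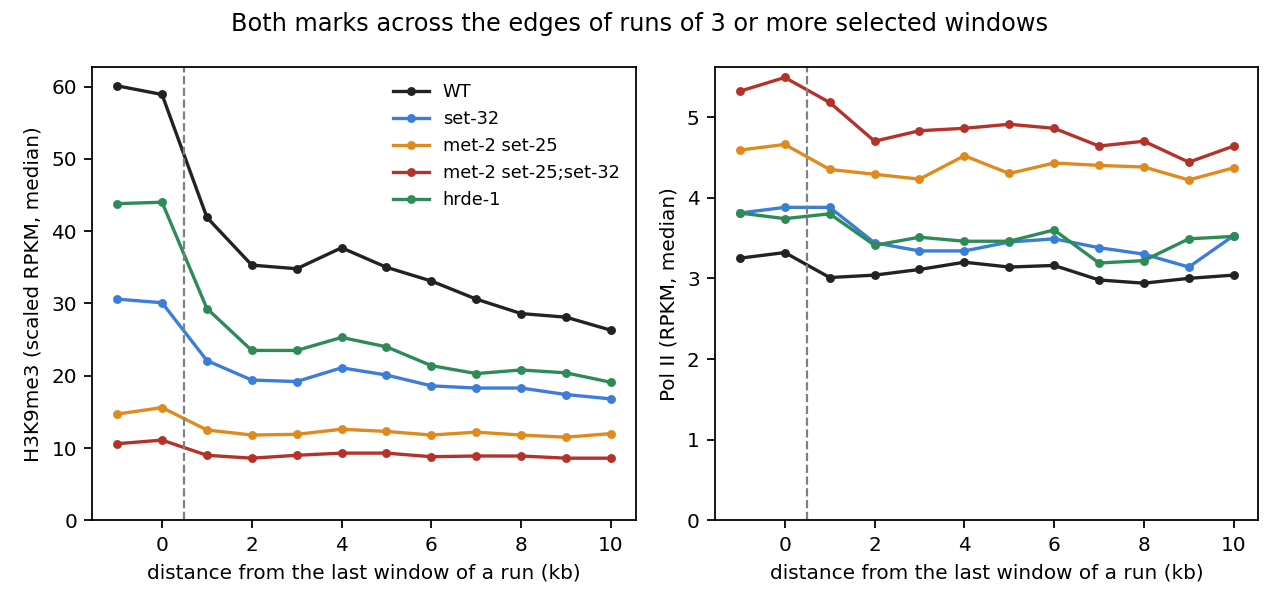
Median H3K9me3 (left, RPKM scaled to the H3K9me3(−) windows) and median Pol II (right, RPKM) against distance from the last selected window of a run (x axis, kb, −1 and 0 inside the run and 1 to 10 outside it), both sides of all runs of 3 or more joined, 1 line for each strain. WT H3K9me3 goes from 58.9 to 26.3 over 10 kb and the triple mutant from 11.1 to 8.6, while Pol II is nearly level in every strain.

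In every library the selected windows were above the genome, but how far above differed by strain. In WT their median was 60.64 RPKM on OP50, 32.39 on gfp RNAi and 45.13 on oma-1 RNAi, against 7.04, 8.47 and 7.83 over all windows. In set-32 it was 25.55, 25.68 and 32.35 RPKM in the same order of feedings. The double mutant medians were 15.79, 14.29 and 15.78 RPKM, and those of the triple mutant were 14.12, 14.13 and 13.57, where the medians of all windows were 9.42 to 9.81 RPKM in both strains. The 3 libraries of each of these HMT mutants lay below every WT library, with set-32 on oma-1 RNAi (32.35) and WT on gfp RNAi (32.39) next to each other. In hrde-1 the medians were 38.83, 33.61 and 41.38 RPKM, inside the WT range.

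**Figure D3:**
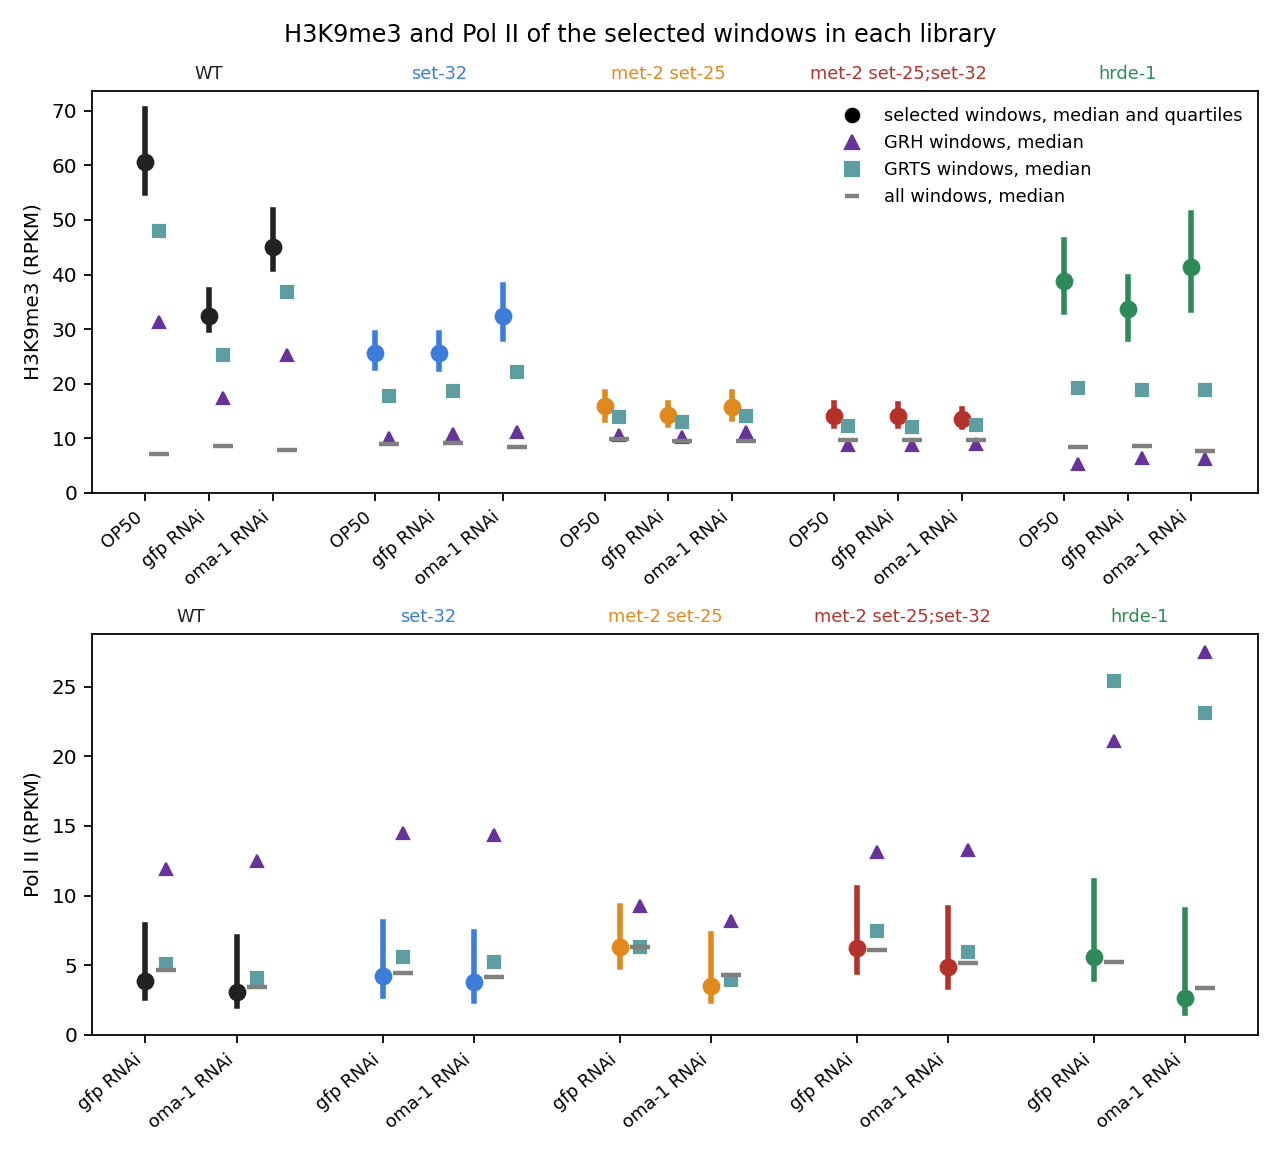
H3K9me3 (top, 15 libraries) and Pol II (bottom, 10 libraries) in RPKM on linear axes, by strain and feeding, with the median (circle) and quartiles (bar) of the 994 selected windows and the medians of GRH windows (triangle), GRTS windows (square) and all windows (dash). The H3K9me3 medians of the selected windows sit at 32.39 to 60.64 in WT, 33.61 to 41.38 in hrde-1 and 13.57 to 15.79 in the double mutant and the triple mutant, while those of Pol II stay between 2.62 and 6.29.

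Because loss of a broad mark raises the depth-normalized level of all other windows, levels were also expressed over the median of H3K9me3(−) windows, the 5th to 25th percentile of WT on OP50. The selected windows stood at 12.2 ± 8.05 times that median in WT (mean ± SD, n = 3), 6.27 ± 1.28 in set-32, 3.13 ± 0.767 in the double mutant, 2.26 ± 0.235 in the triple mutant and 8.99 ± 1.42 in hrde-1. The large SD of WT came from the feedings, with values of 21.1 on OP50, 5.28 on gfp RNAi and 10.3 on oma-1 RNAi. The H3K9me3(−) windows were set in WT on OP50 itself, so the value of that library is high by construction. Within a feeding, the median ratio to WT in set-32 was 0.247 on OP50, 1.07 on gfp RNAi and 0.745 on oma-1 RNAi. For the double mutant it was 0.177, 0.434 and 0.303, for the triple mutant 0.113, 0.426 and 0.19, and for hrde-1 0.498, 1.42 and 0.861. The order of the 4 mutants was the same in each feeding, but set-32 and hrde-1 were above WT on gfp RNAi and below it on OP50 and oma-1 RNAi. Without the scaling the mean ratios were 0.635, 0.343, 0.315 and 0.861 for set-32, the double mutant, the triple mutant and hrde-1.

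The rank of the windows within each library does not depend on a scale. In set-32, 57.0% to 64.3% of the 994 stayed in the top 1% of the library and 96.1% to 98.8% in the top 5%. In hrde-1 these shares were 64.1% to 68.7% and 94.2% to 94.9%. In the double mutant they were 14.9% to 18.1% and 41.4% to 50.8%, and in the triple mutant 12.8% to 15.3% and 34.4% to 44.8%. Part of the WT rank order was thus kept in both strains without MET-2 and SET-25. Input was not analysed here, so whether H3K9me3 itself remained at these windows was not tested. By mean scaled level, 982 of the 994 windows (98.8%) followed 1 order, with the triple mutant lowest, the double mutant next and set-32 above both, and in 77 windows hrde-1 was below set-32.

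The native targets differed from the selected windows in hrde-1. GRH windows stood at 1.4 ± 0.0585 times the H3K9me3(−) median in hrde-1 and GRTS windows at 4.49 ± 0.593, against 8.99 ± 1.42 for the selected windows (SD, n = 3 each). In WT the GRH medians of 31.35, 17.37 and 25.21 RPKM and the GRTS medians of 47.92, 25.29 and 36.88 were below those of the selected windows in all 3 libraries. GRH windows had been marked by their dependence on this pathway, so their low level in hrde-1 is a check of the strain label.

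The strongest window outside the end of chromosome I, V:17127, had H3K9me3 of 154.74, 92.34 and 124.28 RPKM in WT on OP50, gfp RNAi and oma-1 RNAi, and 127.81, 135.17 and 178.01 in hrde-1. In set-32 it had 78.68, 82.15 and 88.91 RPKM, in the double mutant 52.02, 38.11 and 42.45, and in the triple mutant 43.4, 45.02 and 38.13. Set-32, the double and the triple mutant were below all WT libraries, and hrde-1 overlapped WT. The difference of hrde-1 from the double mutant was 1.94 ± 0.52 (log2 of scaled RPKM + 1, SE, limma adjusted p = 0.00434), whereas that of the triple mutant from set-32 was −1.43 ± 0.52 and missed the threshold (adjusted p = 0.0544). Pol II at V:17127 was 3.82 and 4.17 RPKM in WT on gfp RNAi and oma-1 RNAi, and 13.25 and 10.44 in the triple mutant, a log2 difference of 1.35 ± 0.31 (limma adjusted p = 0.0182). The median Pol II difference of all windows was itself 0.27 in the triple mutant, and the value at V:17127 is not scaled for that shift.

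H3K9me3 was then compared between the mutants. The WT libraries that chose the windows are on neither side of these comparisons, but they entered the fit and its estimate of the spread, and the H3K9me3(−) windows used for scaling were set in WT on OP50. Calls required an adjusted p below 0.05 (limma, 99742 windows tested) together with a difference of at least 2-fold. All 994 windows had passed the filter on low values. In the triple mutant, 932 of the 994 (93.8%) were lower than in set-32 and 0 were higher, against 5.18% and 0.01% of all windows tested. Of the 3976 windows next in rank by the same WT mean (the next 4%), 63.0% were lower and 0 were higher. The median log2 difference was −1.39 for the selected windows and −0.30 for all windows, and every one of the 994 was below 0. With depth normalization alone 40.7% were called lower, and without the oma-1 RNAi libraries 0% were, although the medians within OP50, gfp RNAi and oma-1 RNAi were −1.07, −1.26 and −1.85. Library names of the triple mutant and set-32 begin alike on OP50 only, and what that beginning stands for was not tested.

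The absence of MET-2 and SET-25 with SET-32 still present gave a smaller call. In the double mutant, 175 of 994 windows (17.6%) were lower than in set-32 and 0 were higher, against 1.17% and 0.0852% of all windows. Of the next 4%, 8.05% were lower. The median log2 difference of the selected windows was −0.97, against −0.05 over all windows, and 991 of the 994 were below 0. The share ranged from 0.101% without the oma-1 RNAi libraries to 5.23% without gfp RNAi and 83.4% without OP50, and it was 45.1% when the WT libraries were left out of the fit. The number of calls therefore depended on which libraries were in the fit. Within OP50, gfp RNAi and oma-1 RNAi the median was −0.45, −1.23 and −1.22, against 0.24, −0.34 and −0.11 over all windows. The windows share these libraries and their scaling, so their common direction is not a count of independent results.

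Removal of SET-32 in addition to MET-2 and SET-25 gave 0 calls in either direction among the 994 (limma, against 0.0742% of all windows lower and 0.00201% higher). An unadjusted p under 0.05 was found in 55 of them. The median log2 difference between the triple mutant and the double mutant was −0.41 for the selected windows and −0.26 for all windows, and 987 of the 994 were below 0. Within feedings it was −0.62 on OP50, −0.03 on gfp RNAi and −0.62 on oma-1 RNAi. The difference was thus not detectable window by window at this depth and number of libraries.

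H3K9me3 in hrde-1 was far above that of the strains without MET-2 and SET-25. Of the 994 windows, 868 (87.3%) were higher in hrde-1 than in the double mutant and 955 (96.1%) higher than in the triple mutant, with 0 lower in either comparison. Over all windows tested 5.02% and 8.68% were higher and 0.141% and 0.0301% lower. Of the next 4%, 45.8% and 84.9% were higher. The median log2 differences were 1.47 and 1.90 for the selected windows, and 0.01 and 0.25 for all windows. Without the oma-1 RNAi libraries the shares were 6.14% and 39.3%. GRH windows, marked by their dependence on HRDE-1, went the other way against the double mutant, with 0 of 215 higher and 15.3% lower in hrde-1.

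Against set-32, hrde-1 differed at few of the selected windows. Only 5 were higher in hrde-1 (0.352% of all windows were) and 1 lower (0.0662%), with a median log2 difference of 0.51 and 919 of 994 above 0. Without the oma-1 RNAi libraries both counts were 0, and without gfp RNAi 1 window was higher. The 5 higher windows were V:1202, V:1203, V:19428, V:19430 and III:8858. V:1203 had 109.83, 31.22 and 43.64 RPKM in WT on OP50, gfp RNAi and oma-1 RNAi, 27.12, 22.96 and 28.65 in set-32 and 89.12, 76.29 and 104.99 in hrde-1, a log2 difference between the mutants of 1.82 ± 0.41 (SE, limma adjusted p = 0.0037). Its hrde-1 values were above those of every other strain except WT on OP50. The 1 lower window, I:4464, had 86.04, 38.02 and 61.48 RPKM in WT, 25.44, 29.0 and 38.94 in set-32 and 9.99, 8.86 and 8.78 in hrde-1 (−1.57 ± 0.34, adjusted p = 0.00162). I:4464 lay 1 kb from a GRH or GRTS window, and its hrde-1 level was below that of the triple mutant (17.09, 14.53 and 13.18 RPKM) in each feeding.

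The largest differences of the double mutant from set-32 lay together on the right arm of chromosome I, between I:14885 and I:14893. At I:14886 H3K9me3 was 85.04, 47.1 and 69.08 RPKM in WT, 38.86, 42.68 and 58.69 in set-32, and 75.31, 78.64 and 99.43 in hrde-1. In the double mutant it was 11.48, 11.82 and 12.51 RPKM and in the triple mutant 13.83, 14.4 and 15.65, so that both strains without MET-2 and SET-25 were near the genome median while set-32 overlapped WT. The difference of the double mutant from set-32 was −2.01 ± 0.40 (SE, limma adjusted p = 0.000148). I:2057 and IV:2911 gave the largest differences of the triple mutant from set-32. I:2057 had 30.61, 29.44 and 43.14 RPKM in set-32 and 7.06, 9.55 and 9.5 in the triple mutant (−2.29 ± 0.35, adjusted p = 2.17e-07), with the double mutant at 11.04, 15.43 and 15.07.

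V:15585 had another pattern, with little H3K9me3 in set-32. Its RPKM was 58.42, 27.27 and 46.21 in WT on OP50, gfp RNAi and oma-1 RNAi, 9.65, 6.86 and 6.83 in set-32, 12.37, 9.51 and 6.52 in the double mutant and 3.53, 4.76 and 5.83 in the triple mutant. Set-32 and the triple mutant each had it among their 5 lowest of the 994. Pol II at V:15585 was 10.21 and 9.96 RPKM in WT and 23.99 and 29.35 in set-32, a log2 difference of 1.31 ± 0.23 (SE, limma adjusted p = 0.00108), and it was 32.53 and 27.07 in the triple mutant (1.47 ± 0.23, adjusted p = 0.000814). In the double mutant Pol II was 15.02 and 11.05 RPKM and in hrde-1 13.13 and 14.97, and neither passed the test (adjusted p = 0.548 and 0.959). V:15585 lay 3 kb from a GRH or GRTS window, and 22 of its 25 libraries held reads counted in parts.

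Over all strains together, the Pol II level of the selected windows was close to that of the genome. The mean over the 10 libraries had a median of 4.5 RPKM in the selected windows and 4.66 in all windows from which they were chosen, and 510 of the 994 (51.3%) were below the latter. In the top 10% of the genome by Pol II (21.5 RPKM or more) were 68 of them (6.84%). Library medians ran from 2.62 to 6.29 RPKM for the selected windows and from 3.4 to 6.29 for all windows. In WT alone, the median was 3.35 RPKM in the selected windows and 4.06 in all windows from which they were chosen. The WT medians of the selected windows were 3.87 on gfp RNAi and 3.11 on oma-1 RNAi. H3K9me3(−) windows were well above them, at 13.85 and 15.62 RPKM. By chromosome, the WT medians of the selected windows were 11.74 RPKM on I, 8.39 on IV, 4.99 on II, 4.55 on III, 3.27 on X and 2.64 on V, against 8.1, 3.84, 4.48, 7.58, 3.16 and 3.0 for all eligible windows of the same chromosomes. On chromosomes I and IV the selected windows thus had more Pol II than other windows, on III less, and on II, V and X about as much.

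Pol II in each mutant was compared with WT under the same call, with 99742 windows tested and depth normalization only. All 4 comparisons share the same WT libraries. The median of all windows was shifted by 0.27 in the triple mutant and by 0.19 in the double mutant (log2), and by 0.02 in set-32 and 0.00 in hrde-1, so that changes in the triple and double mutants are to be read against that shift. The median of the selected windows was 0.50 in the triple mutant, 0.32 in the double mutant, 0.14 in hrde-1 and 0.11 in set-32.

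In hrde-1, 57 of the 994 windows (5.73%) rose in Pol II and 8 (0.805%) fell, against 0.464% and 0.135% of all windows tested. Of the next 4%, 2.44% rose and 0.503% fell. When libraries were scaled to the median of all windows, 45 of the 994 rose and 9 fell. The windows that rose lay close to the native targets, with a median of 2 kb to the nearest GRH or GRTS window, against 136 kb for all 994. Of the 95 selected windows within 2 kb of a GRH or GRTS window, 35 (36.8%) rose, and of the 899 farther away 22 (2.45%) rose. Among GRTS windows themselves 160 of 191 (83.8%) rose. The authors had identified GRTS windows with the hrde-1 mutant, so this rise is a check of the strain label. Of the 464 windows with reads counted in parts 38 (8.19%) rose, and of the other 530 windows 19 (3.58%).

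**Figure D4:**
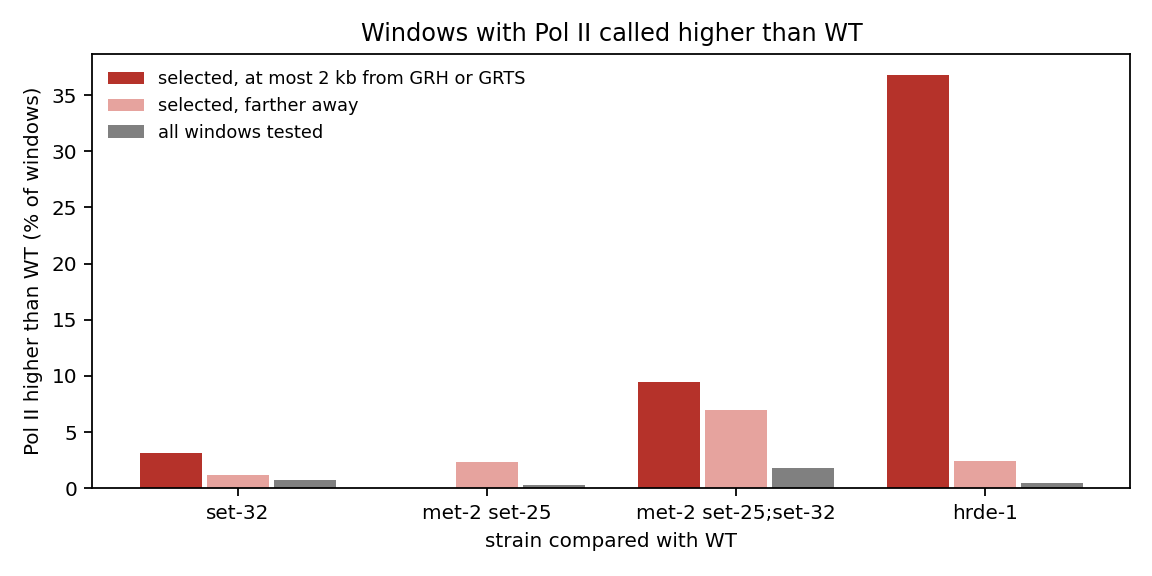
Share of windows whose Pol II was called higher than in WT (y axis, percent, linear) for each mutant strain (x axis), for the 95 selected windows within 2 kb of a GRH or GRTS window, the 899 farther away and all 99742 windows tested. The hrde-1 bars are 36.8%, 2.45% and 0.464%, and those of the triple mutant are 9.47%, 7.01% and 1.85%.

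The largest of these rises was at II:2155, 1 kb from a native target. Its Pol II was 2.92 and 2.89 RPKM in WT on gfp RNAi and oma-1 RNAi, 30.5 and 39.73 in hrde-1, and 4.12 to 10.52 in the other mutants, a log2 change in hrde-1 of 3.20 ± 0.30 (SE, limma adjusted p = 7.04e-08). V:5186, also 1 kb away, had 7.03 and 6.45 RPKM in WT and 55.73 and 70.99 in hrde-1 (3.05 ± 0.25, adjusted p = 8.73e-09), with 6.66 to 10.35 in the other mutants. H3K9me3 at V:5186 was 42.54, 43.92 and 48.69 RPKM in hrde-1, and 14.12, 17.92 and 14.17 in the triple mutant (a difference of 2.02 ± 0.39, adjusted p = 7.18e-06), whereas Pol II in the triple mutant did not pass the test (9.17 and 7.74 RPKM, adjusted p = 0.499). V:17573 rose by 3.09 ± 0.34 (adjusted p = 1.42e-06), from 1.63 and 2.54 RPKM to 35.24 and 17.55.

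Whole runs rose in hrde-1. In IV:2904-2912 all 8 windows were called higher (4 under the median scaling), with mean Pol II of 10.9 and 10.7 RPKM in WT on gfp RNAi and oma-1 RNAi and 28.0 and 29.4 in hrde-1. In the triple mutant the means of that run were 20.9 and 21.5 RPKM and 2 of 8 windows passed the test. In I:11057-11064 all 7 windows rose (5 under the median scaling), from 11.4 and 11.7 RPKM to 32.7 and 31.7, and in IV:4132-4134 all 3 rose, from 8.76 and 7.45 to 38.8 and 31.3. The triple mutant also had 2 of 7 windows called higher in I:11057-11064 and 2 of 3 in IV:4132-4134, and set-32 had 1 of 3 in IV:4132-4134. Under the median scaling all 3 windows of IV:4132-4134 kept their call in hrde-1. The triple mutant and set-32 then had 0 calls in IV:2904-2912, I:11057-11064 and IV:4132-4134. The double mutant had 0 calls in these runs, and set-32 had 0 in IV:2904-2912 and I:11057-11064. In WT on OP50, gfp RNAi and oma-1 RNAi, mean H3K9me3 of IV:2904-2912 was 65.1, 32.9 and 48.6 RPKM. In hrde-1 it was 23.7, 22.1 and 24.3. That of I:11057-11064 was 60.2, 30.3 and 47.0 in WT and 20.3, 21.9 and 20.9 in hrde-1. In IV:4132-4134 it was 70.0, 30.9 and 47.1 in WT and 31.6, 27.4 and 27.9 in hrde-1. The window IV:2911, 133 kb from the nearest GRH or GRTS window, lies far from the marked targets, and its Pol II was 11.85 and 15.25 RPKM in WT and 28.04 and 31.39 in hrde-1 (1.09 ± 0.22, adjusted p = 0.00861).

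A pair of runs on chromosome V rose as if they were a single one. V:8837-8844 and V:8879-8886 lie 42 kb apart, each with 6 selected windows that all rose in hrde-1, also under the median scaling. Mean Pol II of the first was 3.9 and 3.12 RPKM in WT and 18.0 and 13.1 in hrde-1, and that of the second 4.09 and 3.32 in WT and 18.9 and 13.5 in hrde-1. Window by window their values differed by a median of 3.57% over the libraries, and both held reads that aligned to several loci, so these are values of a repeated block and the 12 windows are not 12 separate loci. H3K9me3 of the first run averaged 49.5, 46.6 and 60.5 RPKM in hrde-1, against 68.9, 35.9 and 50.9 in WT.

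The 8 windows that fell in hrde-1 lay 33 to 249 kb from the nearest GRH or GRTS window. They were X:150, X:151, X:152, X:58, IV:2996, I:14336, III:3895 and III:8858. Of these, IV:2996, III:3895 and III:8858 were low in H3K9me3 in WT on OP50 and are described below. With windows chosen by WT on OP50 alone, 5 of 1008 fell in hrde-1. X:152 had Pol II of 25.98 and 25.01 RPKM in WT and 4.67 and 2.49 in hrde-1, a log2 change of −2.57 ± 0.26 (SE, limma adjusted p = 3.92e-07). In the double mutant it had 7.61 and 11.56 RPKM (−1.35 ± 0.26, adjusted p = 0.0104). The values of set-32 (35.81 and 25.6) and of the triple mutant (19.85 and 20.86) did not pass the test (adjusted p = 0.812 and 0.476). The neighbouring X:150 and X:151 fell as well in hrde-1, to 7.18 and 6.92 RPKM and to 7.69 and 5.42, from 22.94 to 38.92 in WT. H3K9me3 at X:152 was 22.84, 18.52 and 25.48 RPKM in hrde-1 and 6.13, 9.76 and 10.06 in the triple mutant, a difference of 1.79 ± 0.32 (adjusted p = 1.29e-06).

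In the triple mutant 72 of the 994 windows (7.24%) rose in Pol II and 4 (0.402%) fell, against 1.85% and 0.475% of all windows tested. Of the next 4%, 3.17% rose and 0.629% fell. The 4 that fell were IV:2487, III:3895, III:8858 and IV:2996, all but IV:2487 low in H3K9me3 in WT on OP50. With windows chosen by WT on OP50 alone, 1 of 1008 fell. Under the scaling to the median of all windows, 32 of the 994 rose and 24 fell, so the split between the directions depends on the scale. Without the last 13 windows of chromosome I, 59 of 981 (6.01%) rose. In the double mutant, 21 windows (2.11%) rose and 11 (1.11%) fell, against 0.299% and 0.136% of all windows. Of the next 4%, 0.377% rose and 0.604% fell. Under the median scaling 2 of the 994 rose and 21 fell. Of the 21 that rose, 13 were the end of chromosome I, and 8 of 981 (0.815%) rose without it. Near native targets 9 of 95 windows (9.47%) rose in the triple mutant, and 63 of 899 (7.01%) farther away.

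V:20502 rose in all 3 HMT mutants. Its Pol II was 7.74 and 6.92 RPKM in WT, 16.73 and 17.57 in set-32, 24.35 and 24.99 in the double mutant, and 32.85 and 32.59 in the triple mutant, all of which passed the test (log2 changes of 1.12 ± 0.23, 1.63 ± 0.23 and 2.02 ± 0.23, SE, limma adjusted p = 0.00386, 0.000297 and 1.61e-05). Under the median scaling the call in set-32 was lost (1.05 on the log2 scale) and those in the double mutant (1.29) and the triple mutant (1.57) were kept. In hrde-1 it was 10.55 and 8.38 RPKM (0.32 ± 0.23, adjusted p = 1.0). H3K9me3 at V:20502 was lower in both strains without MET-2 and SET-25, with 28.69, 38.07 and 38.34 RPKM in set-32, 16.35, 15.43 and 18.14 in the double mutant and 21.18, 16.47 and 15.73 in the triple mutant, while hrde-1 had 51.1, 44.28 and 61.14. Of its run, V:20500-20506, 4 of 6 windows rose in the triple mutant (3 under the median scaling). V:20510, 4 kb beyond it, went from 7.95 and 7.38 RPKM to 30.23 and 29.78.

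Other windows rose in the triple mutant from low levels. X:124 had 1.94 and 3.0 RPKM in WT, 8.73 and 11.33 in the double mutant and 11.08 and 13.42 in the triple mutant, with log2 changes of 1.68 ± 0.38 and 1.94 ± 0.38 (SE, limma adjusted p = 0.0368 and 0.00492). The call in the double mutant was lost under the median scaling. In IV:16312-16316 all 5 windows rose in the triple mutant, from means of 4.24 and 4.54 RPKM in WT to 12.8 and 11.3, of which 1 passed under the median scaling. IV:1722 was called higher in the triple mutant (62.41 and 81.37 RPKM), but its WT libraries differed widely from each other (29.68 on gfp RNAi and 7.53 on oma-1 RNAi), and so did those of hrde-1 (28.56 and 4.98).

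**Figure D5:**
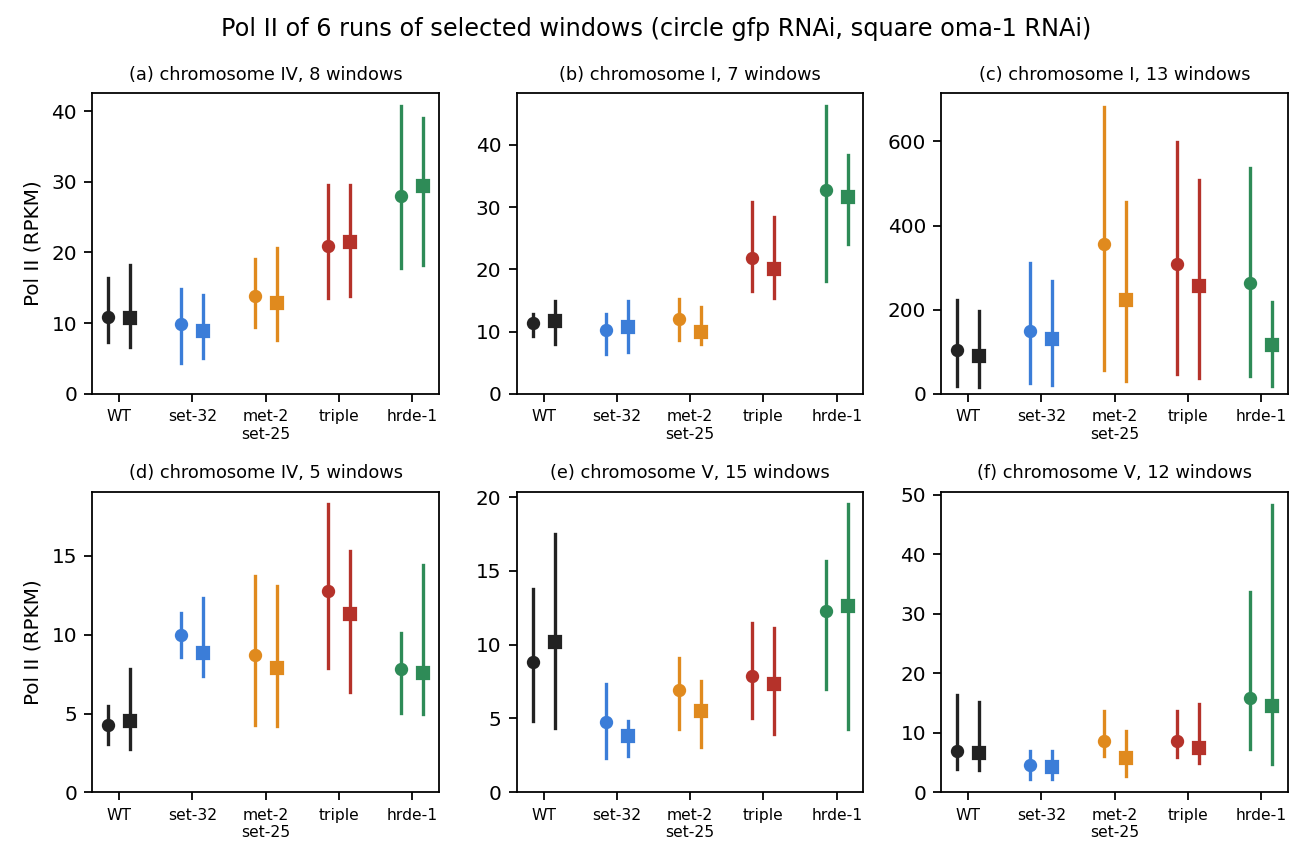
Pol II (y axes, RPKM, linear from 0) in 6 runs of selected windows, by strain (x axis, triple is met-2 set-25;set-32), with the mean of the windows of a run as a circle for gfp RNAi and a square for oma-1 RNAi and a bar from the lowest to the highest window. The runs are IV:2904-2912 (a), I:11057-11064 (b), I:15060-15072 (c), IV:16312-16316 (d), V:17632-17647 (e) and V:8475-8487 (f). In (a) and (b) the hrde-1 means are 28.0 to 32.7 against 10.7 to 11.7 in WT, and in (e) the set-32 means are 4.76 and 3.84 against 8.85 and 10.2.

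Few windows changed in Pol II in set-32. Of the 994 windows 14 (1.41%) rose in Pol II and 13 (1.31%) fell, against 0.704% and 1.32% of all windows tested, and under the median scaling 10 rose and 14 fell. The largest fall was at V:19050, a window with very high Pol II: 219.84 and 170.58 RPKM in WT on gfp RNAi and oma-1 RNAi, 20.08 and 35.9 in set-32, 300.73 and 317.16 in the double mutant, 218.07 and 261.27 in the triple mutant and 234.66 and 110.54 in hrde-1. Set-32 alone lay below all other strains there (log2 change of −2.80 ± 0.31, SE, limma adjusted p = 1.52e-06), and the triple mutant, which carries the same set-32 allele, did not. H3K9me3 at V:19050 was 69.09, 36.58 and 51.81 RPKM in WT and 30.61, 30.77 and 40.44 in set-32.

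The other cluster of falls in set-32 was the run V:17632-17647, where 7 of 15 windows fell (6 under the median scaling). Under that scaling 5 of the 15 were also called lower in the triple mutant and 2 in the double mutant, where 0 were without it, and 12 of the 15 held reads counted in parts. At V:17645 Pol II was 13.85 and 17.52 RPKM in WT and 3.35 and 2.46 in set-32, a log2 change of −2.10 ± 0.27 (SE, limma adjusted p = 2.04e-05), with 7.24 to 11.06 in the double mutant and the triple mutant and 11.51 and 15.72 in hrde-1. All 15 windows of the run were lower in H3K9me3 in the triple mutant than in set-32, and all 15 were higher in hrde-1 than in the double mutant. In V:8475-8487, 1 kb from a native target at its nearest, 3 of 12 windows fell in set-32 and 4 of 12 rose in hrde-1 (0 under the median scaling). X:3752 rose in set-32 from a low level, with 1.43 and 0.69 RPKM in WT and 5.35 and 3.4 in set-32 (1.38 ± 0.36, limma adjusted p = 0.0325). V:15585 and V:20502, described above, rose in set-32 from higher levels.

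The 3 windows with low H3K9me3 in WT on OP50 alone had a Pol II pattern of their own. IV:2996 had H3K9me3 of 12.95 RPKM on OP50, 66.82 on gfp RNAi and 83.55 on oma-1 RNAi in WT, and 3.07 to 23.07 in the 12 mutant libraries. Its Pol II was 69.61 and 86.4 RPKM in WT and 12.47 to 18.63 in the 8 mutant libraries. It was lower than WT by 2.48 ± 0.22 in set-32 and 2.14 ± 0.22 in the double mutant (log2, SE). In the triple mutant it was lower by 2.29 ± 0.22, and in hrde-1 by 2.39 ± 0.22. III:8858 had H3K9me3 of 15.03, 45.22 and 63.55 RPKM in WT and 5.22 to 23.21 in the mutants. Pol II at III:8858 was 73.96 and 89.44 RPKM in WT, 65.37 and 47.05 in set-32, and 20.56 to 43.22 in the other mutants, a fall of 1.84 ± 0.24 in the triple mutant. III:3895 had 19.03, 48.14 and 53.45 RPKM of H3K9me3 in WT, and its Pol II of 15.69 and 20.04 RPKM fell in set-32 to 4.65 and 4.34 (1.77 ± 0.29). In these windows both marks were higher in the 2 WT cultures on RNAi bacteria than in any mutant culture, and no OP50 library of Pol II was measured. All 3 windows entered the selection through WT on these 2 feedings, which are also the WT side of the Pol II comparison. Their falls are therefore given as a description, without p-values, although they are counted among the calls. The part of the WT cultures themselves in these calls was not tested.

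The last 13 windows of chromosome I stood apart in both marks. In the assembly WBcel235, whose coordinates were not used here, RefSeq lists the rRNA genes rrn-3.1 and rrn-1.2 among the last 6 genes of this chromosome, and the tandem rDNA array of C. elegans lies at this end. At I:15066 H3K9me3 was 2735.05, 1238.01 and 1162.81 RPKM in WT on OP50, gfp RNAi and oma-1 RNAi, 862.14, 985.92 and 1439.94 in set-32, 889.29, 966.73 and 1001.06 in the double mutant, 987.54, 653.68 and 1085.46 in the triple mutant and 1886.17, 1601.27 and 3348.69 in hrde-1. The strains overlapped, and the triple mutant did not fall below 653.68 RPKM at this window. None of the 13 windows was called between any pair of mutants (limma adjusted p from 0.0853 to 1.0 over the 6 comparisons). Input chromatin of these windows was not analysed here, and the part of copy number in their values was not tested.

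Pol II at the end of chromosome I was high and differed from WT in both strains without MET-2 and SET-25. The mean over the 13 windows was 105.0 and 90.9 RPKM in WT on gfp RNAi and oma-1 RNAi, 356.0 and 223.0 in the double mutant, 308.0 and 257.0 in the triple mutant, 150.0 and 130.0 in set-32 and 263.0 and 115.0 in hrde-1. All 13 windows were called higher in the double mutant (log2 changes of 1.14 to 1.63), and all 13 were also called higher in the triple mutant (log2 changes of 1.19 to 1.67), whereas 1 was called in hrde-1 and 0 in set-32. Under the scaling to the median of all windows, 0 of the 13 were called in the double mutant and 6 in the triple mutant. In 8 of the 13 windows most libraries held reads counted in parts, and their values are not those of 13 separate loci.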

How the data were processed

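The authors mapped reads to WS190 using Bowtie 0.12.7 without mismatches, shared a read equally among all loci it matched, and deposited RPKM for each 1 kb window. These RPKM were neither scaled to background windows nor corrected by input, and input libraries were not analysed here. Columns that hold the authors' own comparisons (marks of HMT dependence) were not used. The windows and the comparison lists were chosen with earlier results of these data known.

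Depth, taken from the spacing of low values, was 2.446e+06 to 7.227e+06 aligned reads per H3K9me3 library and 3.818e+06 to 6.782e+06 per Pol II library. A value within 0.1 reads of a whole number counted as whole, and a window with other values in 13 or more of the 25 libraries was counted as holding reads in parts. Windows with a mean under 3 RPKM (22) and misannotated windows (506) were left out of the tests. The H3K9me3 libraries were scaled to the median of H3K9me3(−) windows, multiplied by the mean of these medians so that the unit stays RPKM. limma 3.58.1 in R 4.3.3 was run on log2(RPKM + 1) with the trend term, 1 fit for each mark over all strains, with feeding as a block and Benjamini-Hochberg adjustment over all windows. A fold change on this scale understates the change of low windows. In the H3K9me3 fit the prior degrees of freedom were infinite, so that windows of like level shared 1 spread. Nothing in the labels gives repeated cultures, so p-values measure only the spread left between feedings after the feeding block, pooled over the 5 strains. The fit was checked on simulated data. Other steps used Python 3.11.15, numpy 2.4.6, pandas 2.3.3 and matplotlib 3.10.9.

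Windows and runs were named by a rule: the 10 highest and those nearest the limit, the 10 longest runs, the 5 largest called changes in each direction and comparison, and the 5 highest and lowest by H3K9me3 in the triple mutant, set-32 and hrde-1. V:17127, I:14336 and runs with 3 or more windows called one way were added after their values were seen. The alternatives were another scaling, a pseudocount of 0.5, no filter, no feeding block, each feeding left out, and other definitions of the windows. Leaving WT out of the H3K9me3 fit and leaving out the end of chromosome I were chosen after seeing the data.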

Additional observations from a re-analysis of the deposited data

Results flagged for a closer look

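Pol II of the selected windows in hrde-1 against WT differed in direction between the feedings. The median log2 difference over the 994 windows was 0.45 on gfp RNAi and −0.11 on oma-1 RNAi, against 0.11 and −0.09 over all windows tested, and 463 windows (46.6%) had opposite signs in the 2 feedings. Each strain and feeding has 1 library, so the difference between the feedings was not tested.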

How the results depend on the processing

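Values are percent of the selected windows called. For Pol II, the scaling to the median of all windows gave 0.201 higher and 2.11 lower in the double mutant, and 3.22 higher and 2.41 lower in the triple mutant. Without the feeding block, 0.905 were higher in set-32, 0.402 in the double mutant and 4.23 in the triple mutant. With windows chosen by WT on gfp RNAi alone or on oma-1 RNAi alone, 2.01 and 2.01 were lower in set-32, 1.81 and 1.81 in the double mutant, 1.31 and 1.01 in the triple mutant and 1.81 and 1.51 in hrde-1. Chosen by OP50 alone, 0.0992 were lower in the triple mutant and 0.496 in hrde-1, and by the scaled WT mean 0.201 in the triple mutant. The top 2% gave 1.31 higher in the double mutant and 3.67 in hrde-1, the 530 windows without reads in parts 3.58 higher and 0.377 lower in hrde-1, and the windows without the end of chromosome I 0.815 higher in the double mutant. For H3K9me3, depth normalization alone gave 40.7 lower in the triple mutant than in set-32, and 0.805 higher and 0.201 lower in hrde-1 than in set-32. Without the block, 7.95 were lower in the double mutant than in set-32 and 0.302 higher in hrde-1 than in set-32. With the WT libraries left out of the fit, these were 45.1 and 2.62, with 0.201 lower in hrde-1 than in set-32 and 0.201 lower in the triple mutant than in the double mutant (0.101 at a pseudocount of 0.5). For hrde-1 against set-32, the windows by gfp RNAi alone, by oma-1 RNAi alone and the top 2% gave 0.301, 0.302 and 0.251 higher, and the top 2% and those without reads in parts 0.0503 and 0.189 lower. Leaving out each feeding gave ranges of 0 to 97.0 lower in the triple mutant than in set-32 (0 without oma-1 RNAi), 0.101 to 83.4 lower in the double mutant than in set-32, 0 to 0.101 lower in the triple mutant than in the double mutant, 0 to 0.402 higher and 0 to 0.101 lower in hrde-1 than in set-32, 6.14 to 89.4 higher in hrde-1 than in the double mutant and 39.3 to 97.0 higher in hrde-1 than in the triple mutant. The cause of these shifts was not tested. None of the named windows reversed under the alternatives run on them. A window named in several comparisons was counted once for each. Of 39 such pairs of window and comparison for Pol II, 35 kept their call under the median scaling and 32 without the block. Of 26 pairs for H3K9me3, 10 kept it without oma-1 RNAi. With 2 Pol II libraries per strain, leaving out a feeding gave values only, and the planned description of input was not run. The pairing of the strains by feeding is the feeding block itself, since the labels give no replicate numbers.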
